A study of Mus musculus with 16 samples.

Results

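The genes described here are the insulin-like growth factor (IGF) axis and the noncoding RNA H19 in the mouse retina: the ligands Igf1 and Igf2, the receptor Igf1r, H19, and the binding proteins Igfbp2, Igfbp3, Igfbp4, Igfbp5, Igfbp6 and Igfbp7. They were found by name on the array, under current or older symbols, which gave 24 of 43426 probes for 10 of 25695 genes. The genes were chosen by name with earlier levels and group differences of these same arrays known, so their values are given as a description, with no p-value. IGF1 and IGF2 are secreted peptides that act through the tyrosine kinase receptor IGF1R, which signals through insulin receptor substrates, PI3 kinase and AKT. In the extracellular space the IGF binding proteins hold most of the ligand, and proteases free it. H19 is an imprinted RNA expressed from the maternal chromosome next to Igf2, which is expressed from the paternal one, and both are abundant before birth and decline afterwards. In the growing retina IGF1 is known to be needed for vessels to respond fully to VEGF.

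Mice were injected into the vitreous and their retinas collected 24 h later. C57Bl6 pups 8 days old received 1 µg VEGF-A (n = 5), 4 µg Dll4-Fc (n = 4), an Fc fusion of the Notch ligand Dll4, or 4 µg hFc, the Fc control (n = 4). A group of 3 samples received VEGF Trap, which binds VEGF-A; its age and dose are not given in the labels. VEGF-A and its hFc control were given at unequal doses. Each sample, in Cy3, was hybridised against a pool of equal amounts of RNA from the experiment, in Cy5, on 4x44k arrays. Levels are log2 of sample over pool, so 0 is the pool's level and a difference of 1 is a doubling; a level compares arrays for one probe, not one gene with another. Whether any samples share an animal is not stated, and the spread between samples may therefore be technical. A code in the titles, of unstated meaning, is the same up to its last digit for hFc 1 and 2, and for VEGF-A 4 and VEGF Trap 3. The n of 4 counts hFc 1 and 2 as separate samples, and averaging them was an alternative. The arrays are of whole retina, where fewer cells of a type and less RNA per cell cannot be told apart.

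Slide 1 held the 4 hFc arrays and slide 2 the 4 arrays of Dll4-Fc, and in comparisons with hFc the slide and the treatment cannot be told apart. VEGF-A and VEGF Trap shared slide 3 (VEGF-A 1 and 2, VEGF Trap 1 and 2) and slide 4 (VEGF-A 3, 4 and 5, VEGF Trap 3). The first digit of the titles' code is the same within a slide and differs between slides. What it stands for cannot be told apart from the slide. Of the retina markers on the array, 8 of 8 were well above background on all 16 arrays. Outlier spots numbered 2350 to 2599 per hFc array and 12 to 213 per array elsewhere, and they were left out. All 24 probes of the IGF genes and H19 passed the filter on dim probes, and 23 of them were well above background on all 16 arrays.

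After VEGF-A, H19 fell about 3-fold, Igfbp3 rose 3.09-fold on its brighter probe, and Igfbp7 rose 2.31-fold, while both ligands and the receptor stayed within 0.36 log2 units of hFc on every probe. After Dll4-Fc, Igfbp4 fell by 1.48-fold on its probe 3. After VEGF Trap, Igfbp5 rose 1.70-fold on its probe 1. A probe was called where limma's adjusted p over all probes was at most 0.05. In VEGF-A against hFc 4 of the 24 probes were called higher and 2 lower, where 5.68% and 3.3% of all 38887 tested probes were, or 8.99% in either direction. In Dll4-Fc against hFc 0 were called higher and 2 lower, against 2.65% and 1.37% of all probes, 4.02% together. In VEGF Trap against hFc 1 was called higher and 0 lower, against 0.903% and 1.79%, 2.69% together. In VEGF-A against VEGF Trap 5 were higher and 4 lower, against 9.76% and 7.11% of 39788 probes, 16.9% together. The median log2 difference over the 24 probes was 0.0040, 0.16, 0.070 and −0.084 in that order, and over all probes −0.044, −0.025, −0.017 and −0.036. The first 3 comparisons share their hFc arrays. In the same order, the arrays of the 2 groups did not overlap on 14.9%, 11%, 23.7% and 24% of all probes. Of the 24 probes, 4, 1, 3 and 4 lay wholly higher and 3, 4, 4 and 5 wholly lower.

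**Figure D1:**
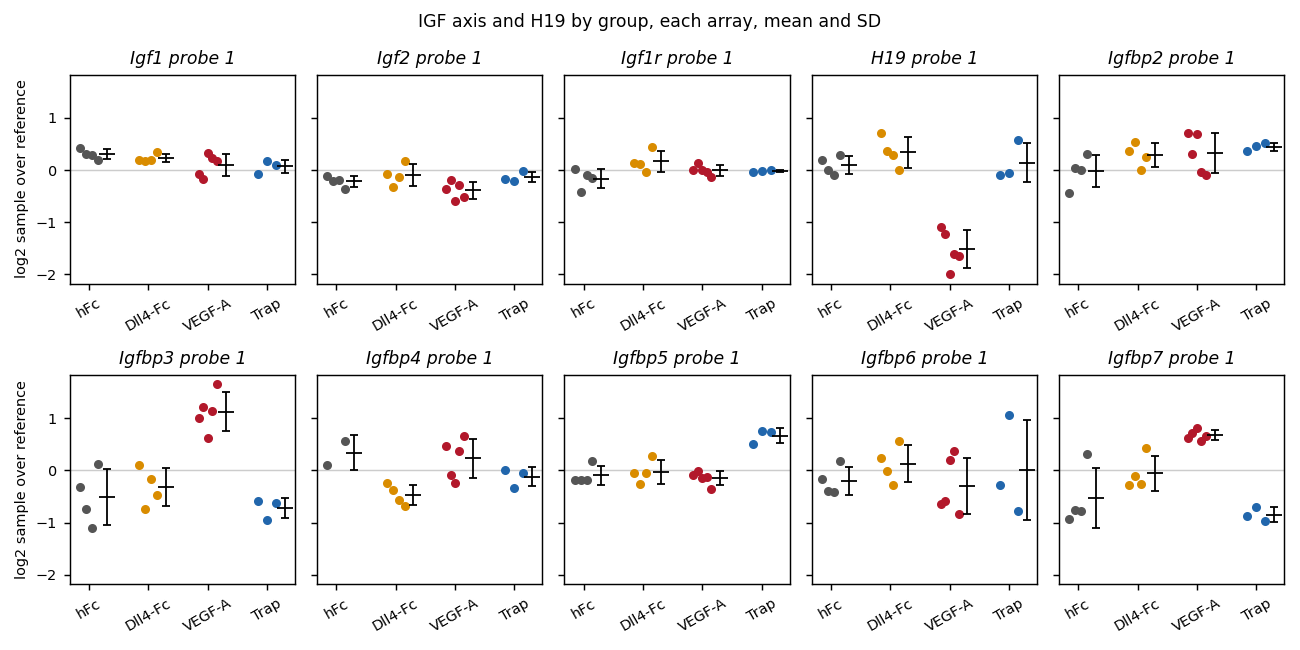
Level of the brightest probe of each gene, as log2 of sample over the reference pool (y axis), on each array of the 4 groups (x axis; Trap is VEGF Trap); points are arrays, and the bar beside them is the mean with its SD. All 5 VEGF-A arrays lie lowest for H19, at −1.99 to −1.10, and highest for Igfbp3, at 0.61 to 1.65, and the 3 VEGF Trap arrays lie highest for Igfbp5, at 0.50 to 0.75.

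Igf1, the ligand made by many tissues in response to growth hormone, was measured by 3 probes. Probe 1 read 0.43, 0.30, 0.30 and 0.19 in hFc 1 to 4, 0.20, 0.18, 0.18 and 0.34 in Dll4-Fc 1 to 4, −0.07, −0.17, 0.33, 0.23 and 0.17 in VEGF-A 1 to 5, and −0.07, 0.18 and 0.10 in VEGF Trap 1 to 3. The VEGF-A arrays were split by slide: both on slide 3 were below 0 and all 3 on slide 4 above it. The means ± SD were 0.30 ± 0.10 in hFc (n = 4), 0.22 ± 0.07 in Dll4-Fc (n = 4), 0.10 ± 0.21 in VEGF-A (n = 5) and 0.07 ± 0.13 in VEGF Trap (n = 3). Neighbours in this order overlapped. VEGF Trap lay wholly below hFc, by 0.24 (SE 0.12), without a call; 23.7% of all probes had groups that did not overlap in that comparison.

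Igf1 probe 2 lay lower in VEGF-A than in hFc on every array, at −0.36 to 0.03 against 0.13 to 0.19. Groups did not overlap on 14.9% of all probes in that comparison. The difference of probe 2 was −0.31 (SE 0.10) and was not called. Without VEGF-A 4 it was −0.35 and was called. Within VEGF-A it too was lower on slide 3, at −0.33 and −0.36, than on slide 4, at −0.04, 0.03 and −0.01. Igf1 probe 3 ran the other way. It read 0.51 and 0.55 on the VEGF-A arrays of slide 3 and −0.12, −0.11 and −0.10 on those of slide 4, and 0.60, 0.53 and 0.33 in VEGF Trap. Its correlation with probe 1 over the 16 arrays was −0.53, where probe 2 had 0.83; the arrays share the pool and the slides. Probe 3 was also dim, with a background-subtracted Cy3 signal of 12.4 to 70.2, and lies 51.0 kb before probe 2. These sequences are shown because probes of the same gene disagreed:
Igf1 probe 2, chr10:87471884-87471943, plus strand: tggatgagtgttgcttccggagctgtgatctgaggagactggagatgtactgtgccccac
Igf1 probe 3, chr10:87420848-87420907, plus strand: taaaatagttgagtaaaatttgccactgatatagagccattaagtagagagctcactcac
The coordinates here and below are those of the scanner files, with a genome build not given in the sources used here, and no exon map was used. The GC content is 55% in probe 2 and 35% in probe 3.

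Igf2, the growth factor of the fetus, had 2 probes, and neither was called in any of the 4 comparisons. Probe 1 read −0.11, −0.22, −0.20 and −0.36 in hFc, −0.08, −0.33, −0.14 and 0.17 in Dll4-Fc, −0.36, −0.19, −0.59, −0.28 and −0.52 in VEGF-A, and −0.17, −0.20 and −0.02 in VEGF Trap. The groups overlapped throughout, from −0.10 ± 0.21 in Dll4-Fc (n = 4) and −0.13 ± 0.10 in VEGF Trap (n = 3) through −0.22 ± 0.10 in hFc (n = 4) to −0.39 ± 0.16 in VEGF-A (n = 5). The difference of VEGF-A from hFc was −0.17 (SE 0.11) on probe 1 and −0.14 (SE 0.14) on probe 2. Against VEGF Trap it was −0.26 (SE 0.12) and −0.25 (SE 0.15).

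Igf1r, the receptor of both ligands, had 6 probes, 3 of them listed under older names. None was called in any comparison, though probes 1 and 2 were in Dll4-Fc against hFc with normexp and loess, at 0.45 and 0.35. The 2 brightest, probes 1 and 2, lie 20 bases apart and had a correlation of 0.92 over the 16 arrays, while probes 3 to 6 had 0.35 to 0.50 with probe 1. Probe 1 read 0.02, −0.42, −0.10 and −0.16 in hFc, 0.14, 0.11, −0.03 and 0.44 in Dll4-Fc, −0.0034, 0.14, 0.0036, −0.04 and −0.13 in VEGF-A, and −0.03, −0.02 and −0.0012 in VEGF Trap. Dll4-Fc was the highest group, at 0.16 ± 0.20 (n = 4), and hFc the lowest, at −0.17 ± 0.18 (n = 4), with VEGF-A at −0.01 ± 0.10 (n = 5) and VEGF Trap at −0.02 ± 0.02 (n = 3) between them. The difference of Dll4-Fc from hFc was 0.33 (SE 0.11) on probe 1 and 0.31 (SE 0.10) on probe 2, whose groups did not overlap, as on 11% of all probes. After VEGF-A the 6 probes lay between −0.16 and 0.16. Probe 6, 38.9 kb before probe 1, followed the slides within VEGF-A: it read 0.56 and 0.62 on slide 3 and −0.87, −0.37 and −0.40 on slide 4.

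**Figure D2:**
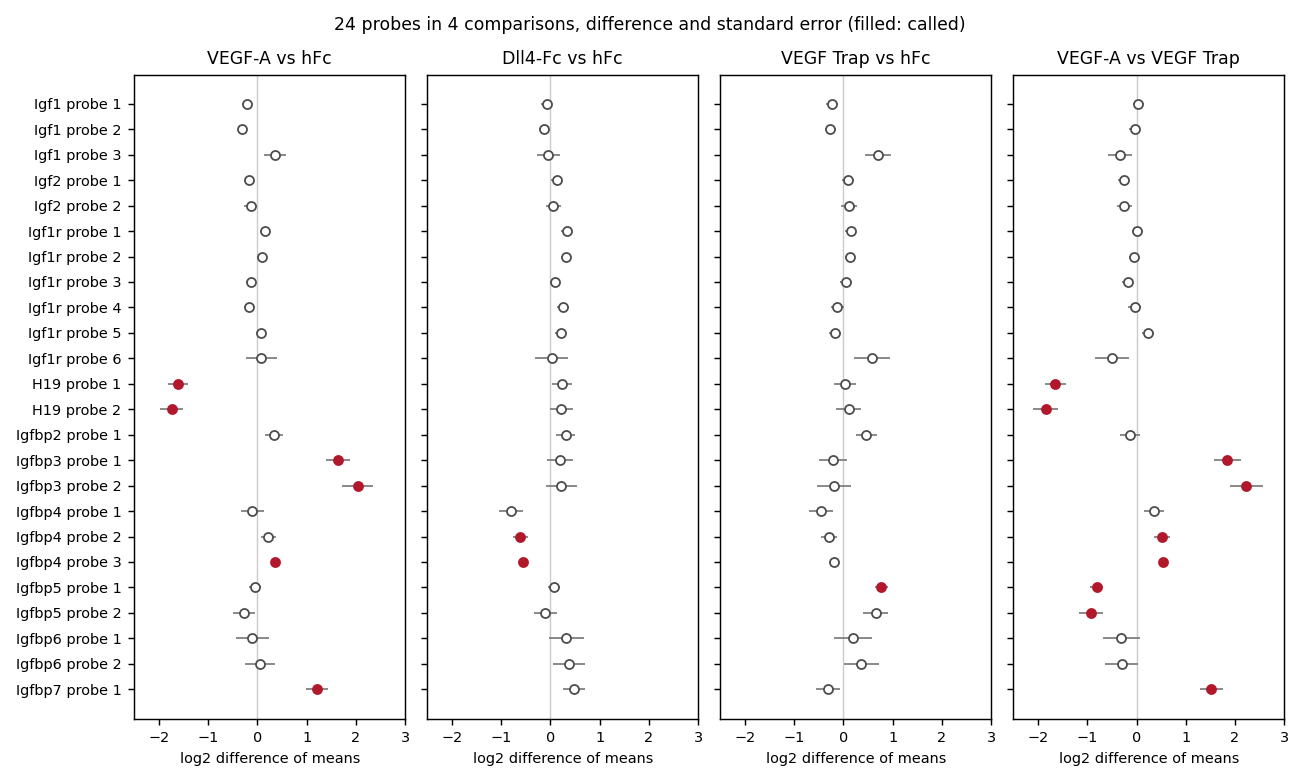
Log2 difference of group means (x axis) for each of the 24 probes (y axis) in the 4 comparisons, with its standard error as a bar; filled points were called over all probes. H19 lies left of 0 and Igfbp3 and Igfbp7 right of it in both comparisons of VEGF-A, Igfbp4 lies left in Dll4-Fc vs hFc, and Igfbp5 lies right in VEGF Trap vs hFc.

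H19, the RNA read from the gene beside Igf2, gave the largest fall of the set. Its 2 probes lie 189 bases apart on the minus strand, 74.9 kb and 74.5 kb from Igf2 probe 1 in the files' coordinates. The 60 bases of probe 2 cover 148 bases of genome, as the files map it, so it spans a junction. Both are printed because the fall rests on them:
H19 probe 1, chr7:139003144-139003203, minus strand: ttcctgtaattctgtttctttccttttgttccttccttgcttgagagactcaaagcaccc
H19 probe 2, chr7:139003393-139003540, minus strand: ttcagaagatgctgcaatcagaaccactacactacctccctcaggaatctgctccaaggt
H19 RNA is also the precursor of the microRNA miR-675, whose mature arms in RefSeq (GRCm38.p6), with the seed, bases 2 to 8, in capitals, are:
mmu-miR-675-5p: uGGUGCGGaaagggcccacagu
mmu-miR-675-3p: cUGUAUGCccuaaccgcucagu
The probes read the long RNA, and the level of the microRNA was not measured.

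H19 probe 1 read 0.20, −0.0039, −0.10 and 0.29 in hFc and 0.71, 0.36, 0.28 and −0.0045 in Dll4-Fc. In VEGF Trap it read −0.09, −0.07 and 0.57. In VEGF-A it read −1.10, −1.22, −1.99, −1.61 and −1.65. All 5 VEGF-A arrays lay below all 11 others, and the other 3 groups overlapped, at 0.34 ± 0.29 in Dll4-Fc (n = 4), 0.14 ± 0.37 in VEGF Trap (n = 3) and 0.10 ± 0.18 in hFc (n = 4). The mean in VEGF-A was −1.51 ± 0.36 (n = 5). Probe 2 read −1.07, −1.12, −2.29, −1.58 and −1.57 in VEGF-A, against −0.0092 to 0.48 in hFc, 0.26 to 0.81 in Dll4-Fc and 0.04 to 0.77 in VEGF Trap. The correlation of both probes was 0.99 over the 16 arrays.

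H19 after VEGF-A was 3.06-fold below hFc on probe 1, a difference of −1.61 (SE 0.19), and 3.34-fold below on probe 2, −1.74 (SE 0.23). Below VEGF Trap it was by 3.14-fold, −1.65 (SE 0.21), and 3.59-fold, −1.84 (SE 0.25). The 4 values were called, also with each library left out in turn. With slide as a block the difference from VEGF Trap on probe 1 was −1.61 (SE 0.25); on slide 3 alone it was −1.08 and on slide 4 alone, with 1 VEGF Trap array, −2.32. The VEGF-A arrays of slide 3 lay above those of slide 4, at −1.10 and −1.22 against −1.99, −1.61 and −1.65, and VEGF Trap 3, the only VEGF Trap array on slide 4, was the highest of its group. Dll4-Fc and VEGF Trap differed from hFc by 0.24 (SE 0.21) and 0.04 (SE 0.22) on probe 1, without a call. Over all 16 arrays Igf2 probe 1 spanned 0.76 log2 units where H19 probe 1 spanned 2.70.

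**Figure D3:**
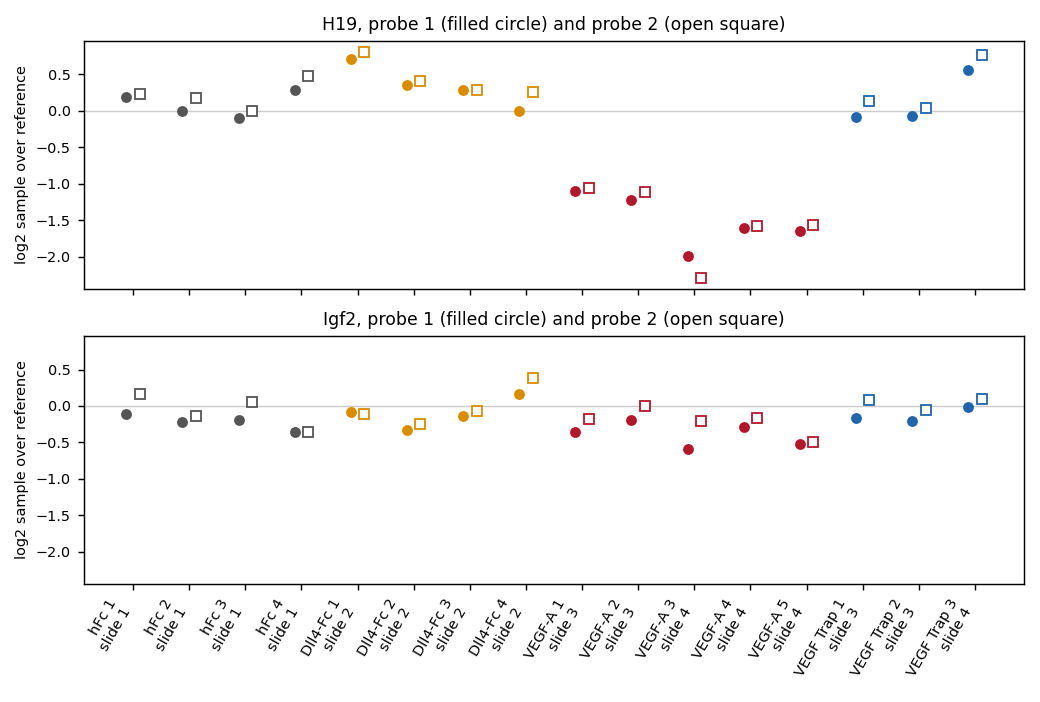
Level of H19 (top) and Igf2 (bottom) as log2 of sample over pool (y axis) on each of the 16 arrays with its slide (x axis); filled circles are probe 1, open squares probe 2, and colours the groups. H19 lies at −1.10 or below on probe 1 in VEGF-A and between −0.10 and 0.71 elsewhere, while Igf2 probe 1 stays between −0.59 and 0.17.

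The genes around H19 on chromosome 7 were read from a list of 10. In the order of coding genes of the RefSeq table, Mrpl23 and Igf2 flank H19, with Tnnt3, Lsp1, Tnni2, Syt8 and Ctsd on the side of Mrpl23 and Ins2, Th, Ascl2 and Tspan32 beyond Igf2. Of the 10, Igf2 not counted, 1 was called in VEGF-A against hFc, where 9.46% of the brightest probes of all genes were. It was Lsp1, a leukocyte actin-binding protein, which differed by −0.40 (limma, adjusted p = 0.022), and its call was lost without hFc 1, hFc 3 or VEGF-A 5, at −0.38 to −0.33, and with normexp and loess, at −0.28. The list's median was −0.042. In Dll4-Fc against hFc, Lsp1 rose by 0.63 (limma, adjusted p = 0.0021) and Tspan32 by 0.48 (adjusted p = 0.039). The Tspan32 call was lost without any 1 of 6 libraries (hFc 2, 3 or 4, Dll4-Fc 1, 2 or 3), at 0.40 to 0.49. Other Tspan32 probes were called at 1.03 and not called at 0.40, and the other Lsp1 probe, at 0.51, was not called. The background was 4.38%, with 2.94% higher and 1.44% lower. Against VEGF Trap, VEGF-A had Lsp1 lower, at −0.74 (limma, adjusted p = 2.5e-04), in 5 of 5 arrays below all of VEGF Trap, and Mrpl23, a mitochondrial ribosomal protein, higher by 0.38 (adjusted p = 0.023), which was not called when VEGF-A 4, VEGF Trap 1 or VEGF Trap 3 was left out (0.30 to 0.36) or with slide as a block. In VEGF Trap against hFc 0 of 10 were called by limma, with 2 at an unadjusted p under 0.05; normexp and loess gave 1.

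Igfbp3, the main carrier of IGF in blood, which is also made by vessel cells, rose after VEGF-A on both probes. Probe 1 is printed for carrying this rise and for spanning a junction, as its 60 bases cover 1010 bases of genome:
Igfbp3 probe 1, chr11:7160474-7161483, minus strand: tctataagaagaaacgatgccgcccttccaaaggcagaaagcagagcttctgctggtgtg
It read −0.32, −0.73, −1.11 and 0.12 in hFc, 0.10, −0.74, −0.16 and −0.46 in Dll4-Fc, 0.99, 1.21, 0.61, 1.14 and 1.65 in VEGF-A, and −0.58, −0.95 and −0.63 in VEGF Trap. All VEGF-A arrays lay above the other 11. The mean was 1.12 ± 0.37 in VEGF-A (n = 5), and the other groups overlapped at −0.32 ± 0.36 in Dll4-Fc (n = 4), −0.51 ± 0.53 in hFc (n = 4) and −0.72 ± 0.20 in VEGF Trap (n = 3).

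Igfbp3 in VEGF-A was 3.09-fold above hFc on probe 1, by 1.63 (SE 0.25), and 4.09-fold on probe 2, by 2.03 (SE 0.31). Above VEGF Trap it was 3.58-fold, by 1.84 (SE 0.27), and 4.67-fold, by 2.22 (SE 0.33). With slide as a block the difference from VEGF Trap was 1.82 on probe 1, and it was 1.86 on slide 3 and 1.77 on slide 4, where the call was lost in a comparison with 1 VEGF Trap array, which was assumed to vary like the other groups. Probe 2 was faint, with a Cy3 signal of 2.67 to 60.3, and was well above background on 2 of 4 hFc and 3 of 4 Dll4-Fc arrays and on all VEGF-A and VEGF Trap arrays. Its size depended on how background was treated: the difference from hFc was 0.64 after normexp with an offset of 50 and 3.19 from Cy3 alone, and it was called in both. Dll4-Fc and VEGF Trap differed from hFc by 0.19 (SE 0.26) and −0.21 (SE 0.28) on probe 1, without a call.

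Igfbp7, a secreted protein that binds IGF weakly and is abundant in vessel walls, had 1 probe. It read 0.62, 0.72, 0.80, 0.56 and 0.65 in VEGF-A, and −0.88, −0.69 and −0.98 in VEGF Trap. In hFc it read −0.93, −0.76, −0.78 and 0.32, and in Dll4-Fc −0.28, −0.10, −0.27 and 0.43. VEGF-A was the highest group and the tightest, at 0.67 ± 0.10 (n = 5), followed by Dll4-Fc at −0.06 ± 0.33 (n = 4), hFc at −0.54 ± 0.58 (n = 4) and VEGF Trap at −0.85 ± 0.14 (n = 3). It rose 2.31-fold against hFc, by 1.21 (SE 0.21), and was 2.87-fold above VEGF Trap, by 1.52 (SE 0.23), with 1.54 when slide was a block, 1.46 on slide 3 and 1.65 on slide 4. hFc 4 stood apart. Without it Dll4-Fc was above hFc by 0.77 and was called, whereas with it the difference was 0.48 (SE 0.23) and was not; VEGF-A was above hFc by 1.49 without hFc 4. The 6 lens genes measured were well above background on all 16 arrays. The mean of this lens list was 0.93 on hFc 4 and −3.17 to −2.89 on the other hFc arrays. It also varied in the other groups, from −3.57 to 0.79 in Dll4-Fc, −3.65 to 0.13 in VEGF-A and −2.40 to 2.05 in VEGF Trap. The part of lens tissue in these values was not tested.

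Igfbp4, an inhibitor of IGF action that the protease PAPP-A cleaves, was lowest after Dll4-Fc. Probes 1 and 2 abut each other, with 0 bases between them, and probe 1 spans a junction, as it covers 6440 bases of genome; they are shown because both read one stretch of RNA and both were low after Dll4-Fc:
Igfbp4 probe 1, chr11:99150876-99157315, plus strand: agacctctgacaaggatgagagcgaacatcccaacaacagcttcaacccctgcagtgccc
Igfbp4 probe 2, chr11:99157316-99157375, plus strand: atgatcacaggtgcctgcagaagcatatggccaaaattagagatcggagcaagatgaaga
Probe 3 lies 3.68 kb further on. It read 0.11, −0.03, 0.03 and 0.13 in hFc, −0.57, −0.41, −0.65 and −0.41 in Dll4-Fc, 0.44, 0.46, 0.27, 0.52 and 0.35 in VEGF-A, and 0.01, −0.11 and −0.30 in VEGF Trap. The Dll4-Fc arrays were the 4 lowest of the 16 and the VEGF-A arrays the 5 highest. Means were 0.41 ± 0.10 in VEGF-A (n = 5), 0.06 ± 0.08 in hFc (n = 4), −0.13 ± 0.16 in VEGF Trap (n = 3) and −0.51 ± 0.12 in Dll4-Fc (n = 4), and only hFc and VEGF Trap overlapped.

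Igfbp4 probe 3 fell 1.48-fold after Dll4-Fc, by −0.56 (SE 0.09), and kept its call in all 16 alternatives. Probe 2 fell by 0.61 (SE 0.15), from −0.75 to −0.29 against −0.07 to 0.41 in hFc. Its call was lost in 8 of 16 alternatives, among them those without hFc 2, 3 or 4 or without Dll4-Fc 2, 3 or 4, at −0.64 to −0.50. Probe 1 had only 2 hFc values, 0.10 and 0.57, since its spots on hFc 2 and 3 were outliers, and it read −0.25, −0.38, −0.57 and −0.68 in Dll4-Fc; its difference of −0.80 (SE 0.24) was not called. After VEGF-A, probe 3 was above hFc by 0.35 (SE 0.08) and was called, but not without hFc 2 (0.32), while probe 2 differed by 0.22 (SE 0.15) and probe 1 by −0.10 (SE 0.23), without a call. Against VEGF Trap, VEGF-A was higher by 0.54 (SE 0.09) on probe 3, with 0.58 when slide was a block. Probe 2 was higher by 0.51 (SE 0.16), with ranges that overlapped, and its call was lost with slide as a block and without any 1 of 7 of the 8 libraries, VEGF-A 3 being the exception (0.44 to 0.57).

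Igfbp5, a binding protein of extracellular matrix and growing tissue, was highest after VEGF Trap. Probe 1 read 0.50, 0.75 and 0.73 in VEGF Trap, −0.18, −0.19, −0.19 and 0.17 in hFc, −0.06, −0.27, −0.05 and 0.28 in Dll4-Fc, and −0.09, −0.0087, −0.14, −0.13 and −0.35 in VEGF-A. The 3 VEGF Trap arrays lay above the other 13, at 0.66 ± 0.14 (n = 3), and the other groups overlapped, at −0.03 ± 0.23 in Dll4-Fc (n = 4), −0.10 ± 0.18 in hFc (n = 4) and −0.15 ± 0.13 in VEGF-A (n = 5). It rose 1.70-fold against hFc, by 0.76 (SE 0.13), and kept its call in all 16 alternatives. VEGF-A lay 1.75-fold below VEGF Trap, by −0.81 (SE 0.13), with −0.79 when slide was a block, −0.68 on slide 3 and −0.94 on slide 4.

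Igfbp5 probe 2 was more variable. It read 0.63, 0.13 and 0.96 in VEGF Trap and −0.57, 0.01, −0.22 and 0.47 in hFc, which overlapped, and the difference of 0.65 (SE 0.25) was not called, though it was with normexp and loess, at 0.77. VEGF-A lay below VEGF Trap by −0.93 (SE 0.24) and was called, but not without VEGF Trap 1 (−0.90) or VEGF Trap 3 (−0.73). On slide 3 alone the difference was −0.70, without a call, and on slide 4 alone, with 1 VEGF Trap array, −1.33. The correlation of both probes over the 16 arrays was 0.73.

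Igfbp2, a binding protein made by glia and neural progenitors in development, whose probe lies 6.09 kb from the nearest Igfbp5 probe, was not called in any comparison. It read −0.44, 0.04, 0.0031 and 0.30 in hFc, 0.37, 0.53, 0.0045 and 0.24 in Dll4-Fc, 0.71, 0.31, 0.69, −0.03 and −0.09 in VEGF-A, and 0.36, 0.46 and 0.52 in VEGF Trap. VEGF Trap, at 0.44 ± 0.08 (n = 3), lay above all hFc arrays, by 0.47 (SE 0.21). Groups did not overlap on 23.7% of all probes in VEGF Trap against hFc. Dll4-Fc at 0.29 ± 0.22 (n = 4) and VEGF-A at 0.32 ± 0.38 (n = 5) overlapped hFc at −0.02 ± 0.31 (n = 4).

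Igfbp6, which prefers IGF2 over IGF1, varied within groups more than between them. Probe 1 read −0.17, −0.39, −0.41 and 0.17 in hFc, 0.23, −0.0091, −0.28 and 0.56 in Dll4-Fc, −0.65, −0.58, 0.19, 0.36 and −0.84 in VEGF-A, and −0.28, 1.07 and −0.78 in VEGF Trap. No comparison was called, and its 2 probes had a correlation of 0.97. VEGF Trap 2, the highest array for Igfbp6, was also highest for the mean of the 8 fibroblast markers, at 0.91. The other arrays lay between −1.13 and 0.58. VEGF Trap 2 was also highest for the 6 pigment epithelium markers, at 0.89, and for the lens list, at 2.05. VEGF-A 5 was lowest for both Igfbp6 probe 1 and the fibroblast mean. VEGF-A 3 and 4, at 0.19 and 0.36 for Igfbp6, had fibroblast means of −0.35 and −0.67. The part of any of these cell types in the Igfbp6 values was not tested.

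The mean levels of the vessel cell marker lists were highest in VEGF-A, where Igfbp3 and Igfbp7 were high and H19 was low. The mean of the endothelial list was 0.40 to 0.51 in VEGF-A, −0.22 to −0.09 in hFc, −0.075 to 0.048 in Dll4-Fc and −0.75 to −0.66 in VEGF Trap. Of its 10 genes, 7 were called higher and 1 lower in VEGF-A against hFc, and 9 lower in VEGF Trap against hFc. The mural list was at 0.35 to 0.41 in VEGF-A and between −0.94 and −0.38 on all other arrays, with 4 of 10 genes called higher and 2 lower in VEGF-A against hFc. Igfbp7 and Igfbp3 probe 1 ran in the order of the endothelial list's group means. Their differences of VEGF Trap from hFc, −0.31 (SE 0.24) and −0.21 (SE 0.28), had overlapping groups and were not called. Without hFc 4 that of Igfbp7 was −0.027. H19 was low where both lists were high and overlapped between hFc and VEGF Trap. Beside the Igfbp4 values, Dll4-Fc had 5 of 8 Müller glia markers called lower and 7 of 7 microglia and macrophage markers called higher. The red blood cell list was 0.20 to 1.39 in VEGF-A and −1.45 to 0.07 elsewhere. The astrocyte list was 0.17 to 0.48 in VEGF-A and −0.26 to 0.18 elsewhere. Of its 5 genes, 2 were called higher and 0 lower in VEGF-A against hFc. The part of any of these in the results was not tested.

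**Figure D4:**
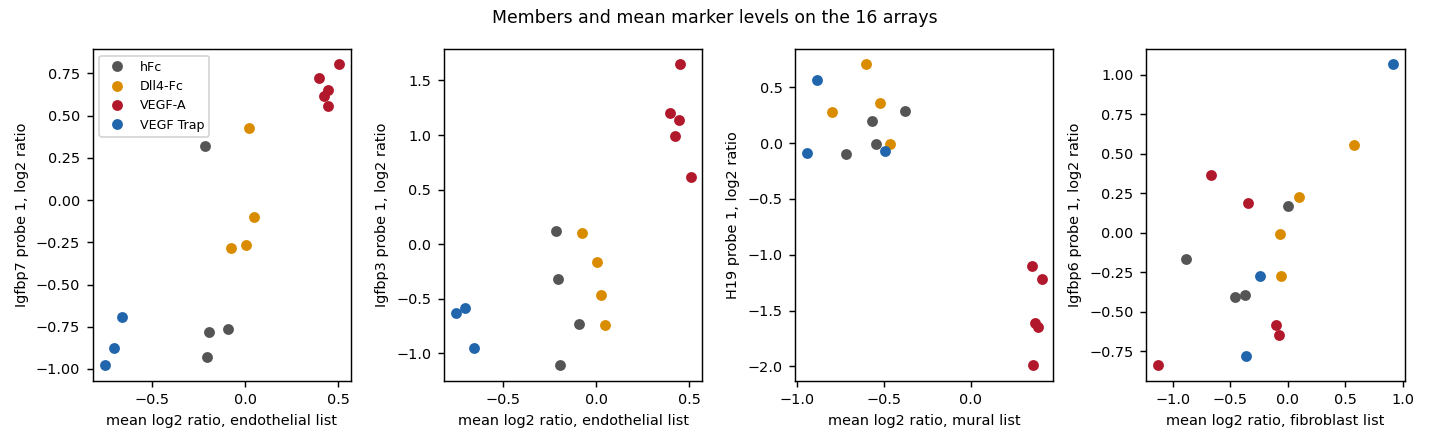
Brightest probe of Igfbp7, Igfbp3, H19 and Igfbp6 (y axes, log2 of sample over pool) against the mean log2 ratio of a marker list (x axes) on each of the 16 arrays, coloured by group. The 5 VEGF-A arrays form a cluster of their own in the first 3 panels, with endothelial means of 0.40 to 0.51 and mural means of 0.35 to 0.41, and VEGF Trap 2 lies at the upper right for Igfbp6.

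Genes that handle IGF outside the cell were read from a list of 13, all measured: other receptors, binding proteins, the PAPP-A proteases and the stanniocalcins that inhibit them. In VEGF-A against hFc 3 rose and 2 fell, where 5.69% and 3.78% of the brightest probes of all genes did. The list's median was 0.041 and that of all genes −0.045. Stc1, a stanniocalcin, rose by 0.74 (limma, adjusted p = 0.012), with all VEGF-A arrays at 0.19 to 0.70 and hFc at −0.70 to −0.03. Pappa, the IGFBP4 protease, fell by 0.42 (limma, adjusted p = 0.0046), from −0.39 to −0.03 against 0.13 to 0.28. Insr, the insulin receptor, rose by 0.67 (limma, adjusted p = 0.030), Igf2r, which clears IGF2, by 0.41 (adjusted p = 0.037), and Igfbpl1, an IGFBP-like protein, fell by 0.42 (adjusted p = 0.021). These last calls were lost without hFc 1, hFc 4, VEGF-A 2 or VEGF-A 3 for Insr (0.49 to 0.65), without hFc 1, 2 or 3 for Igfbpl1 (−0.42 to −0.36) and without any hFc array or any of VEGF-A 1 to 4 for Igf2r (0.37 to 0.43). The other 2 Insr probes, at 0.086 and 0.21, were not called. The other Igfbpl1 probe, at −0.32, was not called either.

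Igfbpl1 gave the largest change of this list, after Dll4-Fc. It read 0.84 to 1.21 in Dll4-Fc and −0.59, −0.78, −0.72 and −1.04 in hFc, 3.68-fold higher, by 1.88 (SE 0.11; limma, adjusted p = 1.6e-07, in 4 of 4 arrays), and its other probe gave 2.32. VEGF-A and VEGF Trap arrays lay between −1.28 and −0.95. It was the only 1 of the 13 called in Dll4-Fc against hFc, where 4.38% of all genes were. In VEGF Trap against hFc 2 rose, Stc2 by 1.01 (limma, adjusted p = 0.0044), from 0.56 to 0.98 against −0.36 to −0.18, and Stc1 by 0.84 (adjusted p = 0.037). The Stc1 call was lost without hFc 1, hFc 3, hFc 4, VEGF Trap 1 or VEGF Trap 3 (0.72 to 0.89), and 2.92% of all genes were called, 1.02% higher and 1.89% lower. The brightest Stc1 probe was thus above hFc in both VEGF-A and VEGF Trap, which share the hFc arrays. The other Stc1 probe was called in VEGF-A against hFc, at 0.99, and not called in VEGF Trap against hFc, at 0.56.

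VEGF-A against VEGF Trap had 0 of the 13 higher and 3 lower, where 10.1% and 7.92% of all genes were, 18% together. They were Stc2, by −0.65 (limma, adjusted p = 0.0076), Pappa, by −0.37 (adjusted p = 0.012), and Igfbp1, a binding protein of the liver, by −0.54 (adjusted p = 0.032). Without VEGF Trap 3 the values of Stc2 and Pappa were −0.52 and −0.34 and were not called. Igfbp1 lost its call without VEGF-A 2, VEGF-A 5 or any VEGF Trap array (−0.57 to −0.46) and with slide as a block.

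Of 24 listed genes of insulin and IGF signal transduction, 22 had values in the comparisons with hFc. In VEGF-A against hFc 2 rose and 2 fell, where 5.69% and 3.78% of all genes did, and the list's median was −0.028. Eif4ebp1, the translation repressor that mTOR phosphorylates, rose 3.45-fold, by 1.79 (SE 0.11; limma, adjusted p = 2.3e-08, in 5 of 5 arrays), from 0.99 to 1.53 against −0.66 to −0.42. The other 3 called genes of this list lay between −0.34 and 0.21. Eif4ebp1 was 3.99-fold above VEGF Trap, by 2.00 (limma, adjusted p = 1.2e-08), in which it read −1.01, −0.69 and −0.57. In Dll4-Fc it read −0.32 to −0.20, without a call.

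Pik3r2, a PI3 kinase subunit, was at −0.28 in VEGF-A against hFc (limma, adjusted p = 0.017), a call lost without hFc 1 or hFc 2 (−0.27 to −0.26). It was lower than in VEGF Trap too, −0.31 (limma, adjusted p = 0.011), a call lost without VEGF Trap 3 (−0.27) and with slide as a block. Irs4, an insulin receptor substrate, was at −0.34 (limma, adjusted p = 0.029), lost without hFc 1, 3 or 4 or VEGF-A 2 or 3 (−0.35 to −0.31), and smaller and not called with normexp and loess, at −0.089, or Cy3 alone, at −0.20. Its other probe was called at −0.85. Akt1, the kinase, was at 0.21 (limma, adjusted p = 0.039), lost without hFc 1, 2 or 3 or VEGF-A 1, 4 or 5 (0.20 to 0.21), and it was 0.32 with normexp and loess. Its other probe read −0.20. Against VEGF Trap Akt1 was at 0.22 (limma, adjusted p = 0.032), lost without VEGF-A 1, 4 or 5 or VEGF Trap 1 or 2 (0.17 to 0.22) and with slide as a block. In Dll4-Fc and in VEGF Trap against hFc 0 of 22 were called by limma, with 3 and 0 at an unadjusted p under 0.05; normexp and loess called 1 in Dll4-Fc. Of the 3 genes whose proteins bind IGF2 mRNA, 2 had values with hFc, and 0 were called in any comparison by limma. At an unadjusted p under 0.05 there were 0 in VEGF-A and 0 in Dll4-Fc against hFc, 1 in VEGF Trap against hFc and 1 in VEGF-A against VEGF Trap, where normexp and loess called 1.

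**Figure D5:**
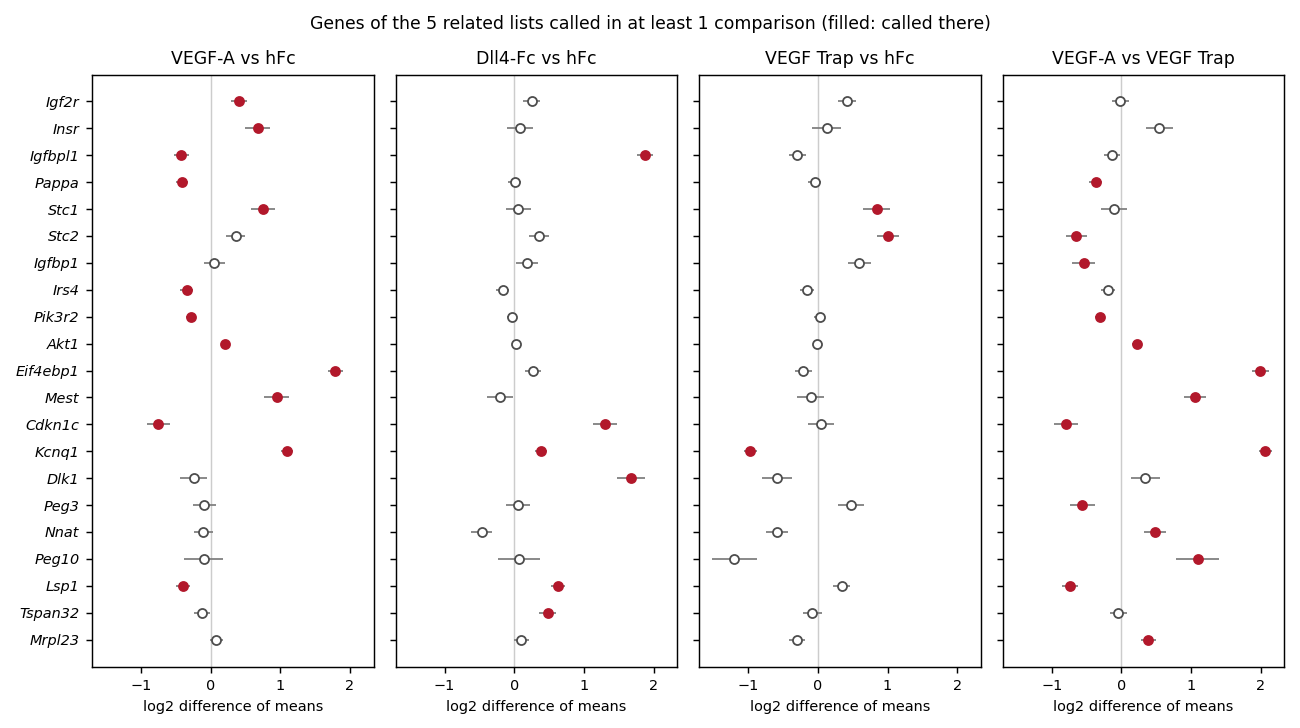
Log2 difference of group means with its standard error (x axis) for the 21 genes of the related lists that were called in at least 1 of the 4 comparisons (y axis); filled points were called in that comparison. Eif4ebp1 lies at 1.79 and 2.00 in the comparisons of VEGF-A and Igfbpl1 at 1.88 in Dll4-Fc vs hFc.

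Other imprinted genes were read from a list of 16, of which 15 were measured, to set H19 beside them. Whether each is imprinted in the retina at this age was not tested. In VEGF-A against hFc 2 rose and 1 fell, where 5.69% and 3.78% of all genes did, with a list median of −0.053. Cdkn1c, a maternally expressed inhibitor of the cell cycle, fell by 0.75 (limma, adjusted p = 0.0069), from −1.40 to −1.04 against −0.59 to −0.20. Kcnq1, a potassium channel, rose 2.13-fold, by 1.09 (limma, adjusted p = 2.3e-07), and Mest, a paternally expressed gene of mesoderm, by 0.95 (adjusted p = 0.0043) over 2 hFc values, a call lost without hFc 1 (0.79). Kcnq1 ran in the order of the endothelial list too, at 0.69 to 0.92 in VEGF-A, −0.06 to 0.24 in Dll4-Fc, −0.37 to −0.14 in hFc and −1.41 to −1.19 in VEGF Trap, where it fell by 0.97 (limma, adjusted p = 1.5e-04) as the only one of the list called. Of its other 4 probes, 3 were called in VEGF-A against hFc, at 0.42 to 1.14.

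After Dll4-Fc 3 imprinted genes rose and 0 fell, where 2.94% and 1.44% of all genes did. Dlk1, a secreted or membrane-bound relative of the Notch ligands, rose 3.18-fold, by 1.67 (SE 0.20; limma, adjusted p = 9.8e-05), and read 1.38, 1.48, 1.39 and 0.43 in Dll4-Fc against −0.77 to −0.26 in hFc. Cdkn1c rose 2.47-fold (SE 0.17 in log2; limma, adjusted p = 1.9e-04), reading 0.73, 0.39, 0.78 and 1.42. Kcnq1 rose by 0.38 (limma, adjusted p = 0.021), a call lost without hFc 2, 3 or 4 or Dll4-Fc 1 or 2 (0.32 to 0.39).

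Between VEGF-A and VEGF Trap 4 imprinted genes were higher and 2 lower, where 10.1% and 7.92% of all genes were. Kcnq1 was 4.19-fold higher, by 2.07 (limma, adjusted p = 4.2e-10), Mest by 1.05 (adjusted p = 4.8e-04), and Cdkn1c lower, at −0.79 (adjusted p = 0.0056). Peg10, a paternally expressed gene of retroviral origin, at 1.09 (limma, adjusted p = 0.024) and Peg3, a paternally expressed zinc finger gene, at −0.56 (adjusted p = 0.044) lost their calls with slide as a block. Leaving out VEGF-A 4, VEGF-A 5, VEGF Trap 1 or VEGF Trap 3 ended the call for Peg10 (0.95 to 1.07), as did normexp and loess at 0.22. Leaving out VEGF-A 3, 4 or 5 or any VEGF Trap array ended it for Peg3 (−0.60 to −0.44), which read −0.24 on slide 3 alone. Other Peg3 probes were called at −0.84 and −0.66 and not called at −0.55. The other Peg10 probe, at 0.38, was not called.

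The genes most like each IGF gene and H19 over the 16 arrays were ranked by Pearson correlation with its brightest probe, among 14496 genes with a symbol and a value on every array. The arrays share the pool, the slides and the groups, so these values only describe likeness. For H19 they were Cul9, a cullin (0.96), Angpt4, an angiopoietin (0.95), and Akna, a transcription and centrosome factor (0.93). For Igfbp7 they were Gask1b (0.94) and the cell cycle genes Mki67 (0.94) and Top2a (0.94). For Igfbp3 they were Nkx6-1, Snx9 and Depdc1a (0.93 each), and for Igfbp6 Aldh1a2, which makes retinoic acid (0.87), Gpnmb (0.86) and Art4 (0.84). For Igfbp5 they were Lcat (0.90), Abhd18 (0.89) and the glucose transporter Slc2a1 (0.86), and for Igfbp2 Cldn19 (0.89), Lrrc74b (0.88) and Lefty1 (0.88). The remaining lists were Gtsf1, Dydc2 and Zc3hc1 for Igf1 (0.89 to 0.90), Rsf1, Kmt2e and Vmn1r226 for Igf2 (0.80 to 0.82) and Tpcn1, Wasl and Setd5 for Igf1r (0.79 to 0.81). Igfbp4 probe 1 lacked 2 hFc values and was not ranked.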

How the data were processed

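Each of the 16 arrays had been scanned and processed with Agilent Feature Extraction 9.5.1.1, per the file headers, and sample (Cy3) and pool (Cy5) are named in the labels. The deposited log10 ratio of Cy5 over Cy3, background-subtracted and dye-normalized (linear and lowess) per the file headers, was turned into log2 of sample over pool. The deposited intensity columns, mean signal and local background of each spot per the file headers, served for an alternative with normexp (offset 50) and loess. A second deposited table was found, by comparison with the scanner ratios, to hold natural log ratios of the same arrays, as deposited by the authors with 25.1% to 27.5% of an array's cells empty. Outlier spots and control spots were left out, spots of one probe were averaged, and probes well above background on at least 3 arrays in Cy3 were kept.

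One limma fit (version 3.58.1, R 4.3.3) of the 4 groups gave differences, standard errors and adjusted p-values (Benjamini-Hochberg over all kept probes, threshold 0.05). The genes described and the lists of related and marker genes were chosen with earlier results of these data known. Every probe of the 10 genes was described, each gene led by its brightest probe, and up to 5 called genes of each related list were named per comparison, with the smallest p. Array dyes were not swapped, so a dye effect of a probe is shared by all arrays. The number of arrays limits the precision. The fit was tested on simulated data before use.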

Additional observations from a re-analysis of the deposited data

Results flagged for a closer look

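In 4 of 71 groups of 4 or 5 arrays tested, 1 array stood apart from the others by Dixon's test of the gap over the range; chance alone gives about 1 in 20, or 3.55. Igf1 probe 1 read 0.34 on Dll4-Fc 4, where the nearest other Dll4-Fc array read 0.20. The other 3 were on hFc 4. Igfbp5 probe 1 read 0.17 there against a nearest value of −0.18, Igfbp6 probe 2 read 0.048 against −0.38, and Igfbp7 read 0.32 against −0.76. On hFc 4 the lens list was also at 0.93, against −3.17 to −2.89 on the other hFc arrays. It also varied by over 3 log2 units within each other group, and its part in these values was not tested.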

How the results depend on the processing

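Of the 96 differences described (24 probes in 4 comparisons), 18 were called. Of these, 13 kept their call under every alternative in which they had a value, and 5 lost it under at least 1. In both comparisons of VEGF-A, Igfbp3 probe 2 had a value in 17 of 19 alternatives. Calls were gained by 6 others, and 0 changed direction while called. Of 36 called values of related genes, 25 lost their call in at least 1 alternative. The count of the 24 probes called in Dll4-Fc against hFc, 2, was 4 with normexp and loess, 1 with Cy3 alone, 1 with hFc 1 and hFc 2 averaged, and 1 to 2 with single libraries left out. In VEGF Trap against hFc it was 1, and 2 with normexp and loess. Over all probes VEGF Trap vs hFc gave 1046 calls, 2319 with normexp and loess, 388 with Cy3 alone, 539 with hFc 1 and hFc 2 averaged, and 259 to 933 with single libraries left out (259 without VEGF Trap 1, 426 without hFc 2, 442 without hFc 3, 469 without VEGF Trap 3, 607 without hFc 4, 651 without hFc 1). VEGF-A vs VEGF Trap gave 6714 calls, 4183 on slide 3 alone, 3311 on slide 4 alone, where the 1 VEGF Trap array is assumed to vary like the other groups in the fit, and 4173 to 6609 with single libraries left out (4173 without VEGF Trap 1, 4426 without VEGF Trap 3). The cause was not tested, beyond the fewer arrays of the slide and left-out settings. Normexp and loess also moved the called genes beside H19 in Dll4-Fc against hFc from 2 to 4 and the imprinted genes in VEGF Trap against hFc from 1 to 3. Averaging hFc 1 and hFc 2, whose titles share a code of unstated meaning, ended the calls of Igf2r, Insr, Igfbpl1, Pik3r2, Akt1 and Lsp1 in VEGF-A against hFc. Among the called related genes named above, Cy3 alone ended the calls of Igf2r, Insr, Irs4, Akt1 and Mest in VEGF-A against hFc. It also ended those of Kcnq1 and Tspan32 in Dll4-Fc against hFc, and of Igfbp1, Pik3r2, Akt1, Peg10 and Mrpl23 in VEGF-A against VEGF Trap. VEGF Trap against hFc on slide 4 alone was not among the alternatives run. No paired analysis was possible because the titles' codes have no stated meaning and only 1 code, without its last digit, recurs in another group (VEGF-A 4 and VEGF Trap 3); the replicate numbers follow the order of deposit, and slide was a block only for VEGF-A against VEGF Trap. Faint probes, Igfbp3 probe 2 above all, are limited by their signal over background.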
